A study of Bos taurus with 12 samples.

Results

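Aminoacyl-tRNA synthetases are the enzymes that join each amino acid to its own tRNA, and 36 genes of this family were followed in the liver of 4-d-old Holstein calves. The 36 genes were a fixed list of symbols, 20 of cytosolic and 16 of mitochondrial enzymes, chosen by name and not by their counts. All 36 were found among the 30336 genes of the count tables, and each had reads in every library. The question was whether methionine fed to the dam before calving was followed by a different abundance of these mRNA in the calf.

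A synthetase activates its amino acid with ATP and then transfers it to the matching tRNA, which carries it to the ribosome. Protein synthesis in the cytosol and in mitochondria uses separate sets of these enzymes, most of them encoded by different nuclear genes, although GARS1 and KARS1 each make both forms. The liver makes most of the plasma proteins and takes up much of the amino acids from the portal blood. When an amino acid is short, the uncharged tRNA activates the kinase GCN2 and through it the transcription factor ATF4, and several cytosolic synthetase genes are among the known targets of ATF4. The methionyl enzymes are MARS1 in the cytosol and MARS2 in mitochondria. MARS1 charges both the initiator tRNA and the tRNA used within the chain.

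Liver was taken by puncture biopsy from 12 heifer calves at 4 d of age, 6 per diet. The control calves (CON) were from cows that received a basal close-up diet without added methionine. The methionine calves (MET) were from cows that received that diet plus ethyl cellulose rumen-protected methionine during the last 28 d before calving. All calves were managed alike after birth and came from a larger cohort, so that the diet reached them only through the dam. Poly(A) RNA was sequenced, and 8277789 to 10397604 reads per library were assigned to genes, of which 11712 to 17991 were on the 36 synthetases.

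Between the libraries CON1 and CON4 the counts differed almost as little as counting noise allows, with a chi-square of 1.33 per gene, and between MET1 and MET3 the chi-square was 1.24. The other pairs of libraries had values of 25.1 to 133. Each close pair was therefore counted as 1 sample (CON1+CON4 and MET1+MET3), which left 10 samples. Means and SD below are over 5 samples per diet. The quasi-likelihood test was run over the 12 libraries and again over the 10 samples. Over the 12 libraries the close pairs still count as separate libraries, so that SE and p there can be too small. Of the other tests, only DESeq2 was also run over the 10 samples. Over the 10 samples no gene of 13242 reached an adjusted p of 0.10 in edgeR's quasi-likelihood test, whereas 583 did over the 12 libraries. With DESeq2, 306 genes (2.31%) passed as higher and 333 (2.51%) as lower over the same 10 samples, so that the loss of calls depends on the test as well, and 0 synthetases were among them (lowest adjusted p 0.191). The CON libraries also carried another first index than the MET libraries, and the part of the index in any difference between diets cannot be told apart from that of the diet.

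Hepatocyte markers were high in every sample, with a summed 86600 to 116000 CPM (counts scaled to a common library size) in CON and 70300 to 100000 in MET. Of these 6 markers 1 passed FDR ≤ 0.10 over the 12 libraries, APOB as lower in MET (log2 fold change -0.38), while ALB was at -0.65 (edgeR adjusted p = 0.107). CPS1 (-0.325) and APOA1 (-0.283) also lay below 0, whereas TTR (0.068) and FGB (0.032) lay above 0. Kupffer cell markers summed to 751 to 1070 CPM in CON and 864 to 1150 in MET, and stellate and fibroblast markers to 516 to 786 and 392 to 643. Of these 2 lists 1 marker each passed, C1QB of the Kupffer cells as higher (0.39), with all 5 markers of that list above 0, and LUM of the fibroblasts as lower (-0.70), with all 4 of that list below 0. Over all genes 2.09% passed as higher and 2.32% as lower. Erythroid markers varied most, from 7.53 to 960 CPM in CON and 57 to 459 in MET. The other lists, of cholangiocytes, endothelium, lymphocytes and skeletal muscle, had no marker past the test, and 2 of the 3 muscle markers were at 0. In whole tissue, fewer cells of a type and less RNA per cell cannot be told apart, and the part of the cell mixture in the results below was not tested.

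Levels of different genes were compared per length, as TPM, which divide the counts by exonic length and scale each library to a common total. SARS1, the seryl enzyme, had the highest level of the 36, with 135 ± 25.1 TPM (SD, n = 10). It was followed by the lysyl enzyme KARS1 with 96 ± 16.7 TPM, the threonyl enzyme TARS1 with 89.1 ± 19.2 and the asparaginyl enzyme NARS1 with 76.8 ± 10.9. The lowest cytosolic level among genes tested was that of the leucyl enzyme LARS1, with 14.1 ± 3.41 TPM. The cytosolic median was 33.5 TPM and the mitochondrial median 11.6, against 9.2 TPM over all genes tested. Of the 20 cytosolic genes 19 lay above that last value, as did 9 of the 16 mitochondrial genes. In the whole order from SARS1 down, the mean ± SD of neighbours overlapped everywhere but at the bottom, where WARS2 (3.68 ± 0.883 TPM), EARS2 (1.37 ± 0.628 TPM) and TARS3 (0.177 ± 0.109 TPM) stood apart from each other.

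**Figure D1:**
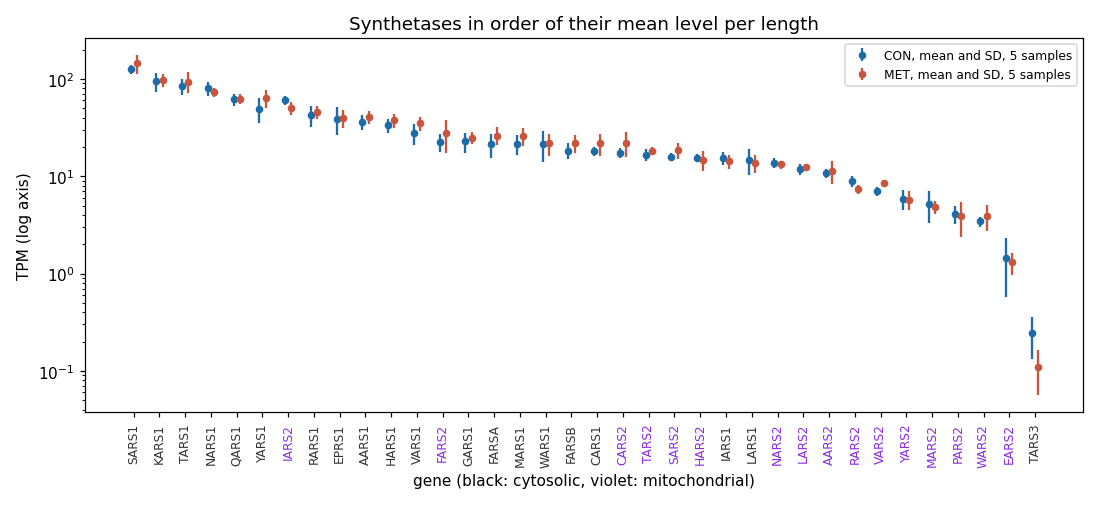
Mean level of each of the 36 synthetases in TPM (counts per length, log axis), in order of the mean over all samples, with the SD over 5 samples for CON (blue) and for MET (red). Names of cytosolic genes are black and of mitochondrial genes violet. SARS1 is highest at 135 TPM, IARS2 is the highest mitochondrial gene at 55.5, and TARS3 is lowest at 0.177.

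For 13 amino acids the list held a cytosolic and a mitochondrial enzyme of the same name, and the cytosolic mRNA was the more abundant per length in 12 of them. The ratio of the mean TPM was largest for the tyrosyl pair, where YARS1 had 9.69 times the level of YARS2, and for the seryl pair with a ratio of 7.85. YARS2 has 5538 annotated exonic bases and YARS1 2318, so that the tyrosyl ratio per length also depends on the annotation. It was close to even for the cysteinyl pair (1.01) and the leucyl pair (1.16). The isoleucyl pair was the exception. Mitochondrial IARS2 was at 55.5 ± 8.62 TPM and cytosolic IARS1 at 14.8 ± 2.35 TPM, a ratio of 0.267. For methionine, MARS1 was at 23.5 ± 5.29 TPM and MARS2 at 5.01 ± 1.37, a ratio of 4.69.

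Of the 36 genes, 35 had enough reads to be tested. None of them passed FDR ≤ 0.10 in either direction, over the 12 libraries or over the 10 samples. Over all 13212 genes tested with the 12 libraries, 2.09% passed as higher in MET and 2.32% as lower. The lowest adjusted p of a synthetase was 0.123 (YARS1) over the 12 libraries and 0.24 (VARS2) over the 10 samples. At an unadjusted p ≤ 0.05 over the 12 libraries, 7 synthetases had a higher value in MET (YARS1, VARS1, FARSA, CARS2, SARS2, VARS2 and TARS2) and 0 had a lower one, against 10.2% and 10.4% of all genes. Over the 10 samples 3 were left at that threshold as higher (YARS1, VARS1 and VARS2) and 0 as lower, against 7.83% and 8.52% of all genes. The number at that threshold over the libraries was 3 without CON replicate 1 and 11 without MET replicate 1. DESeq2 over the 12 libraries placed 1 synthetase below FDR 0.10, YARS1 with an adjusted p of 0.0641, and the likelihood-ratio test placed the same gene at 0.0999. In these tests 4.79% and 3.19% of all genes passed as higher, and 5.15% and 3.72% as lower. Limma's voom placed 0 there, with 8 at the unadjusted threshold, and DESeq2 had 9 at the latter. By voom 1.98% of all genes passed FDR 0.10 as higher and 2.23% as lower.

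The estimates nevertheless lay on 1 side for most cytosolic genes. Over the 12 libraries, 16 of the 19 cytosolic genes tested had a value above 0, with a median log2 fold change of 0.21 (0.24 over the 10 samples). Of the 16 mitochondrial genes 11 were above 0, with a median of 0.13, which was 0.074 over the 10 samples. The median over all genes tested was -0.003. Without MET replicate 4 the cytosolic median was 0.13 over the libraries and 0.11 over the samples, with 16 of 19 genes still above 0. Without MET replicate 1 the mitochondrial median was 0.082. The 95% interval of the fold change held 0 in 28 of the 35 genes when the 12 libraries were used, and in 32 with the 10 samples. In the latter fit the interval reaching furthest up was that of FARS2, to 0.86, and the one reaching furthest down was that of EARS2, to -0.76. In both fits, a log2 fold change of 1 or -1 lay outside the interval of each of the 35 genes.

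**Figure D2:**
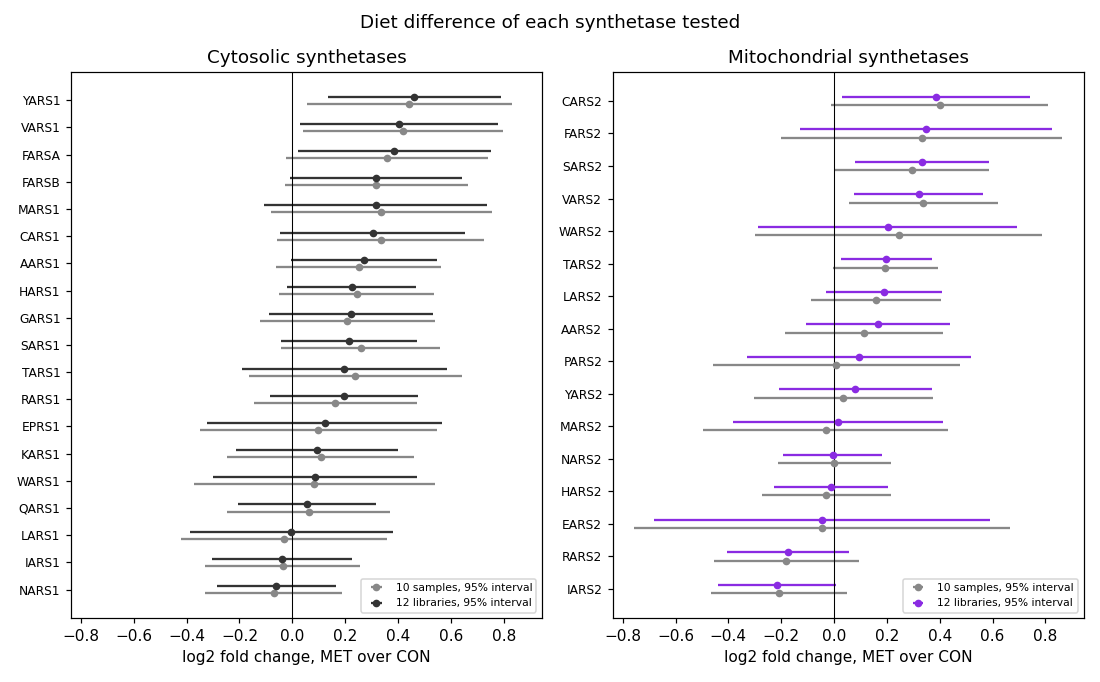
Log2 fold change of MET over CON for the 19 cytosolic (left) and 16 mitochondrial (right) synthetases tested, with 95% intervals from edgeR's quasi-likelihood fit. The upper bar of each gene is the fit over the 12 libraries and the lower grey bar the fit over the 10 samples. Most cytosolic points lie right of 0, from -0.061 for NARS1 to 0.46 for YARS1, and most intervals cross 0.

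The fold change between diets differed with gene length in these libraries. With all genes tested split into 4 equal groups by exonic length, the median log2 fold change was 0.14 in the shortest group and -0.13 in the longest. The median exonic length was 2415 bases for the cytosolic synthetases tested and 3207.5 for the mitochondrial ones, against 2807 for all genes tested. With each library's trend on length removed, the medians were 0.22 for cytosolic and 0.18 for mitochondrial genes (0.23 and 0.16 over the 10 samples), and 0 synthetases passed FDR ≤ 0.10.

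MARS1, the methionyl enzyme of the cytosol (Gene ID 512531, UMD 3.1.1 chromosome 5, 56289156 to 56316460, minus strand), is the synthetase that handles the supplemented amino acid itself. Its values in the CON samples were 25.2 (CON1+CON4), 37.7 (CON2), 40.7 (CON3), 34.3 (CON5) and 39.7 CPM (CON6). In the MET samples they were 27.9 (MET1+MET3), 41.4 (MET2), 56.1 (MET4), 45.3 (MET5) and 53.8 CPM (MET6). The lowest MET sample lay near the bottom of the CON range, and the other MET samples lay above all CON samples. The means were 35.5 ± 6.29 CPM in CON and 44.9 ± 11.2 in MET (SD, n = 5). The fitted log2 fold change was 0.32 with a 95% interval from -0.106 to 0.735 (edgeR adjusted p = 0.384) over the 12 libraries, and 0.34 (adjusted p = 0.403) over the 10 samples. Exons of MARS1 overlap exons of DDIT3 and ARHGAP9 by 133 bases on the other strand, and the counting used strand.

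MARS2, the methionyl enzyme of mitochondria (Gene ID 514726, chromosome 2, 86593547 to 86595790), is a gene of 1 exon and had few reads, 37 to 92 per library. CON samples were at 5.81, 4.65, 4.69, 6.98 and 9.55 CPM, in the order given for MARS1. MET samples were at 7.03, 5.37, 7.02, 5.15 and 6.39 CPM. The MET samples all lay inside the range of the CON samples, of which CON6 was the highest. Its log2 fold change was 0.016 with an interval from -0.38 to 0.41 over the 12 libraries and -0.032 over the 10 samples, so that the sign depended on how the close libraries were counted. MTFMT, which formylates the methionyl-tRNA that starts mitochondrial proteins, had means of 11.4 ± 1.24 CPM in CON and 13.5 ± 2.44 in MET and a log2 fold change of 0.30 (edgeR adjusted p = 0.214 over the libraries and 0.42 over the samples).

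The 3 largest cytosolic values were those of YARS1, VARS1 and FARSA. YARS1, the tyrosyl enzyme (Gene ID 281581, chromosome 2, 121680011 to 121712373), had 56.6, 47.9, 62.9, 57.1 and 85.6 CPM in CON. In MET it had 83.6, 76.2, 116, 73.1 and 72.8 CPM. All MET samples were above 4 of the CON samples, and CON6 was above all MET samples but MET4. The means were 62 ± 14.2 CPM in CON and 84.4 ± 18.3 in MET. The log2 fold change fitted over the 12 libraries was 0.46 ± 0.152 (SE; interval 0.14 to 0.79; edgeR adjusted p = 0.123). Over the 10 samples it was 0.44 (adjusted p = 0.258). Without CON replicate 6 the value of YARS1 was 0.58 and its adjusted p 0.0753. Without MET replicate 4, its highest sample, it was 0.35 (edgeR adjusted p = 0.192) over the libraries and 0.30 (adjusted p = 0.402) over the samples.

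VARS1, the valyl enzyme (Gene ID 505556, chromosome 23, 27365215 to 27374069), had 34.4, 43.6, 48, 47.1 and 58.5 CPM in CON and 41.9, 59.1, 75.7, 67.8 and 65.6 in MET. MET1+MET3 fell within the CON range, and the remaining MET samples were above it. The difference was a log2 fold change of 0.40 ± 0.175 (SE; edgeR adjusted p = 0.214) over the libraries and 0.42 (adjusted p = 0.269) over the samples. FARSA, the catalytic alpha subunit of the phenylalanyl enzyme (Gene ID 522024, chromosome 7, 13741743 to 13751840), had 14.5, 18.6, 21.3, 25.5 and 26.4 CPM in CON and 21.9, 31.6, 31.3, 28.4 and 23 in MET. The diets overlapped in the span from 21.9 to 26.4 CPM. Its log2 fold change was 0.39 ± 0.17 (SE; adjusted p = 0.22), and that of FARSB, the beta subunit with which it forms the enzyme, was 0.32 ± 0.151 (adjusted p = 0.255).

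At the other end were LARS1, IARS1 and NARS1. LARS1, the leucyl enzyme, which is also known as a leucine sensor for mTORC1 (Gene ID 509429, chromosome 7, 59319661 to 59382152), had 20.3, 28.3, 35.1, 30.9 and 38.9 CPM in CON and 23.2, 33.6, 34.8, 25.5 and 33.3 in MET. All MET samples lay within the CON range. A log2 fold change of -0.004 was fitted, with an interval from -0.39 to 0.38 (edgeR adjusted p = 0.992).

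IARS1, the isoleucyl enzyme (Gene ID 509885, chromosome 8, 85268884 to 85350141), had 31.3, 37.2, 41.2, 39.4 and 36.2 CPM in CON and 30.2, 34.2, 47.8, 34.6 and 34 in MET. MET4 was the highest of the 10 samples and MET1+MET3 the lowest. Its log2 fold change was -0.039 (interval -0.30 to 0.22). NARS1 (Gene ID 616033, chromosome 24, 57344499 to 57361324) had 109, 118, 131, 135 and 137 CPM in CON and 108, 114, 144, 119 and 116 in MET. The MET samples other than MET4 and MET1+MET3 lay inside the CON range, and the log2 fold change was -0.061 (interval -0.29 to 0.16). Without MET replicate 4 it was -0.126, and without CON replicate 6 it was -0.028.

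The other 12 cytosolic genes tested had log2 fold changes between 0.055 (the glutaminyl enzyme QARS1) and 0.32 (FARSB), with adjusted p of 0.254 or more. TARS3, a second threonyl enzyme of the cytosol, was below the filter, with 1 to 10 reads per library. It had 0.954, 0.377, 0.801, 0.313 and 0.726 CPM in CON and 0.327, 0.293, 0.115, 0.224 and 0.515 in MET. The MET samples were mostly at or under the level of 3 reads, which was 0.289 to 0.362 CPM, and both diets overlapped. With a looser filter, more than 0.5 CPM in 2 or more libraries, its log2 fold change was -1.13 ± 0.41 (SE; edgeR adjusted p = 0.16). Above 0.5 CPM were CON1+CON4, CON3 and CON6, and of the MET samples MET6 alone. TARS3 thus met the looser filter mostly through CON, where it was higher, so that this value does not test the diet. TARS1, the main threonyl enzyme, had a log2 fold change of 0.20 with an interval from -0.19 to 0.58, and without MET replicate 4 it was 0.05.

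**Figure D3:**
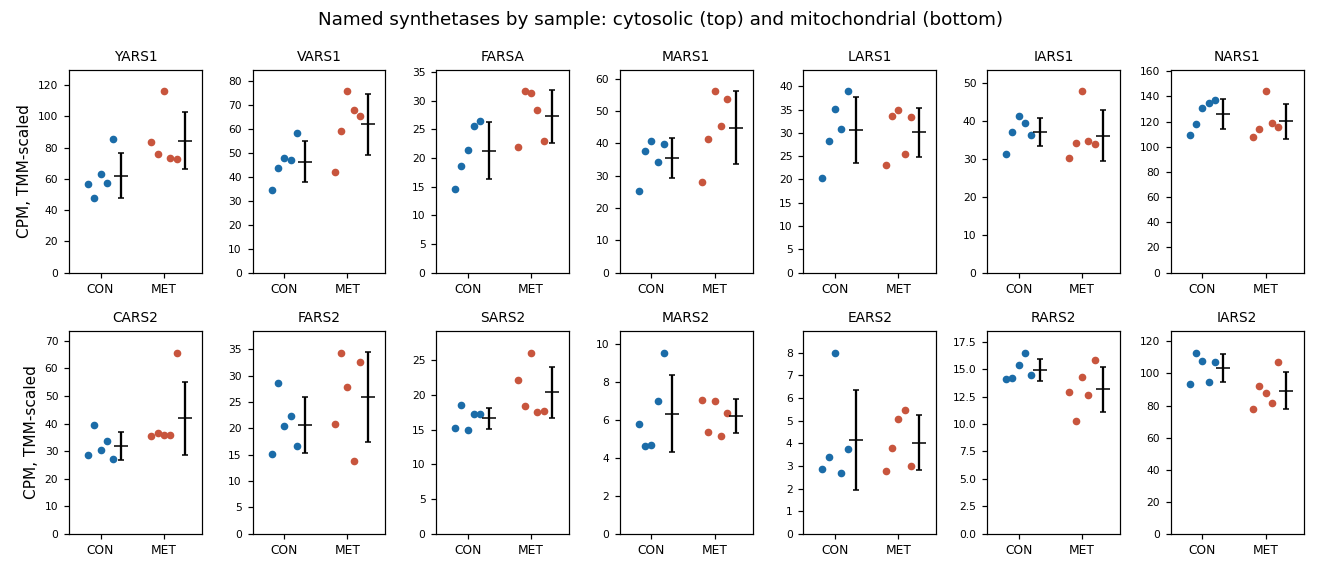
Level in CPM in each sample for 7 cytosolic (top) and 7 mitochondrial (bottom) synthetases, CON in blue and MET in red, with the mean and SD over 5 samples as bars. The order within a diet is CON1+CON4, CON2, CON3, CON5, CON6 and MET1+MET3, MET2, MET4, MET5, MET6. Diets overlap in every panel, and single high samples are seen for YARS1 (MET4, 116 CPM), CARS2 (MET6, 65.7 CPM) and EARS2 (CON3, 8.01 CPM).

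Among the mitochondrial genes, CARS2, FARS2 and SARS2 had the largest values. CARS2, the cysteinyl enzyme (Gene ID 506598, chromosome 12, 89251274 to 89270403), had 28.6, 39.5, 30.3, 33.7 and 27 CPM in CON and 35.6, 36.5, 35.7, 36 and 65.7 in MET. The MET samples other than MET6 lay within 1 CPM of each other and below CON2. CARS2 had a log2 fold change of 0.39 ± 0.166 (SE; edgeR adjusted p = 0.208) over the libraries and 0.40 (adjusted p = 0.317) over the samples. Without MET replicate 6 it was 0.20.

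FARS2, the phenylalanyl enzyme of mitochondria, a single chain unlike the cytosolic one (Gene ID 505390, chromosome 23, 48974670 to 49282524), had 15.1, 28.7, 20.4, 22.4 and 16.6 CPM in CON and 20.8, 34.4, 27.9, 13.9 and 32.6 in MET. MET5 was the lowest of all samples and MET2 the highest. Its log2 fold change of 0.35 had an interval from -0.13 to 0.82. SARS2, the seryl enzyme (Gene ID 282060, chromosome 18, 48896561 to 48905613), had 15.2, 18.5, 14.9, 17.3 and 17.3 CPM in CON and 22.1, 18.4, 26.1, 17.5 and 17.7 in MET. MET4 and MET1+MET3 were above all CON samples, and the other MET samples lay at the top of the CON range. Its log2 fold change was 0.33 ± 0.119 (SE; edgeR adjusted p = 0.144) over the libraries and 0.29 (adjusted p = 0.306) over the samples, where it was 0.19 (adjusted p = 0.479) without MET replicate 4.

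The lowest mitochondrial values were those of EARS2, RARS2 and IARS2. EARS2, the glutamyl enzyme (Gene ID 100300732, chromosome 25, 21438556 to 21476369), had 2.86, 3.39, 8.01, 2.71 and 3.74 CPM in CON and 2.77, 3.81, 5.06, 5.48 and 2.99 in MET. CON3 stood above all other samples, and without it the log2 fold change went from -0.047 to 0.29, both far from the threshold (edgeR adjusted p = 0.953 and 0.547). RARS2, the arginyl enzyme (Gene ID 525894, chromosome 9, 63225401 to 63316923), had 14.1, 14.2, 15.4, 16.5 and 14.5 CPM in CON and 12.9, 10.3, 14.3, 12.6 and 15.8 in MET. Of the MET samples 3 lay below all CON samples, and the log2 fold change was -0.17 (interval -0.405 to 0.058), or -0.11 without MET replicate 2.

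IARS2, the isoleucyl enzyme (Gene ID 533057, chromosome 16, 24285719 to 24329373), had the lowest log2 fold change of the 35 genes. It had 93.4, 113, 108, 94.9 and 107 CPM in CON and 77.6, 92.4, 87.9, 81.9 and 107 in MET. The MET samples other than MET6 were below all CON samples, while MET6 was at the level of CON6. The means were 103 ± 8.63 and 89.4 ± 11.4 CPM, with a log2 fold change of -0.22 ± 0.104 (SE; interval -0.44 to 0.0072; edgeR adjusted p = 0.258) over the libraries. Over the 10 samples it was -0.21 (adjusted p = 0.403).

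Only TARS2, the threonyl enzyme of mitochondria (Gene ID 511740, chromosome 3, 20234411 to 20247282), had all MET samples above all CON samples, 1 of 35 genes, and 0 had all MET samples below. Over all genes tested 1.94% were separated as higher and 1.77% as lower. TARS2 is named here because its samples were separated, after its values were seen. It had 35.8, 35.7, 40.9, 41.2 and 38 CPM in CON and 41.7, 43.9, 42.7, 43.9 and 47 in MET. The gap between CON5 and MET1+MET3 was small, and the log2 fold change was 0.20 ± 0.0798 (SE; edgeR adjusted p = 0.186 over the libraries and 0.317 over the samples). The other 8 mitochondrial genes besides TARS2, MARS2 and the 6 above had log2 fold changes between -0.012 (HARS2) and 0.32 (VARS2).

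For the 13 enzyme pairs the mitochondrial log2 fold change was below the cytosolic one in 7. The widest differences were those of the tyrosyl pair (0.079 for YARS2 and 0.46 for YARS1), the arginyl pair (-0.17 and 0.20) and the methionyl pair (0.016 and 0.32). They were not tested. With a library left out, YARS2 ran from 0.029 to 0.16 and YARS1 from 0.35 to 0.58. HARS1 and HARS2, the histidyl enzymes, lie head to head on chromosome 7 with 106 bases between them and are known to share a promoter region. Fitted values were 0.22 for HARS1 (interval -0.022 to 0.47) and -0.012 for HARS2 (interval -0.23 to 0.205), and HARS1 was at 0.13 without MET replicate 4.

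The samples themselves differed in the cytosolic set as a whole. MET4 had the highest value of the 10 samples in 14 of the 19 cytosolic genes tested, and CON1+CON4 the lowest in 9. The median deviation of these genes from their mean over the samples, on the log2 CPM scale, was 0.42 in MET4 and -0.39 in CON1+CON4. The other samples were between -0.18 (MET1+MET3) and 0.15 (CON6). In the mitochondrial set the medians lay between -0.14 (CON1+CON4) and 0.18 (MET4), and the highest sample of a gene was MET4 in 3 of 16. Across the cytosolic set the samples of 1 diet thus ran further apart (-0.39 to 0.15 in CON and -0.18 to 0.42 in MET) than the median fold change between diets. Within MET, cytosolic values ran from MET1+MET3, which was below the CON samples other than CON1+CON4, up to MET4.

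MET4 also had reads on the fewest genes, 17121, against 17329 to 17668 in the other samples. Its shortest group of genes by length lay 0.18 above its longest on the log2 scale, a distance that was 0.34 in MET6 and -0.23 in CON1+CON4. The part of these features in the synthetase values was not tested. Summed over the family, the cytosolic synthetases took 829 ± 136 TPM in CON and 903 ± 129 in MET, and the mitochondrial ones 221 ± 19.2 and 224 ± 28.8 (SD, n = 5). Both differences were smaller than the SD.

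**Figure D4:**
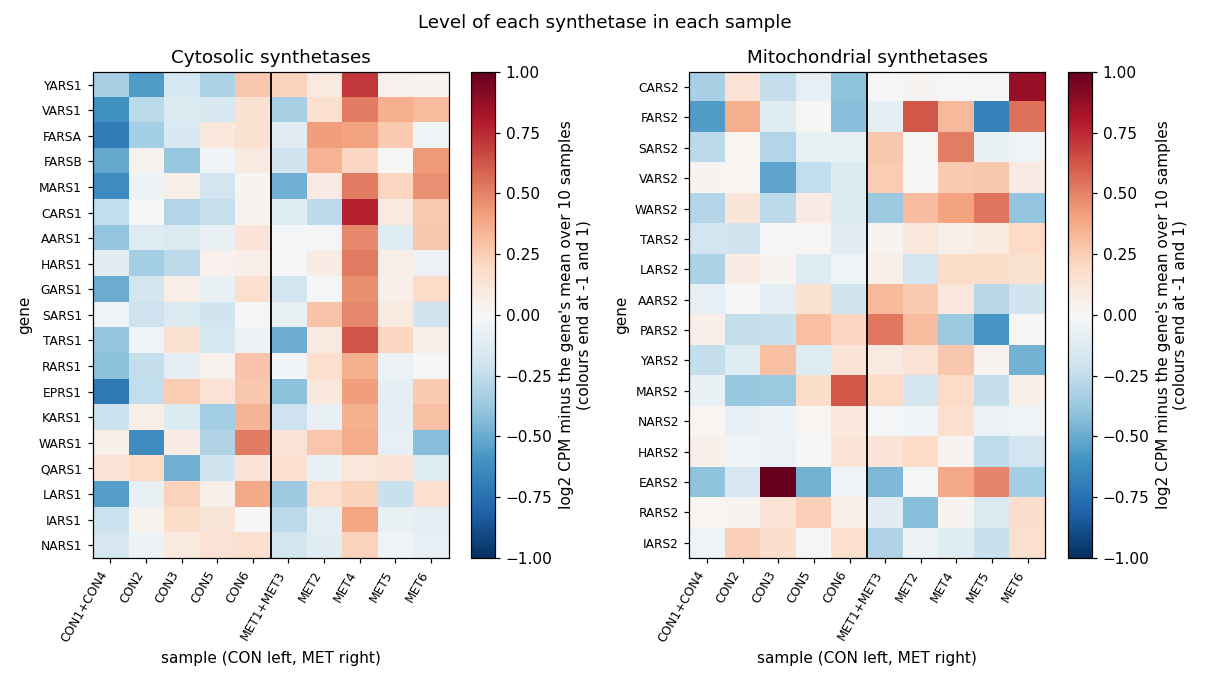
Log2 CPM of each synthetase tested in each of the 10 samples, as the difference from the gene's mean over the samples (red above, blue below, colours end at -1 and 1). CON samples are left of the black line and MET samples right of it. The MET4 column is red for nearly all cytosolic genes (median 0.42) and the CON1+CON4 column blue for most (median -0.39), and both columns are paler for the mitochondrial genes (medians 0.18 and -0.14).

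Within the cytosolic enzymes, 7 of the genes belong to the multi-synthetase complex, a large assembly of synthetases held together by 3 scaffold proteins. These 7 (EPRS1, IARS1, KARS1, LARS1, MARS1, QARS1 and RARS1) had a median log2 fold change of 0.092, 5 above 0 and 2 below, and none at the unadjusted threshold. The 12 cytosolic genes tested outside the complex had a median of 0.25, with 11 above 0. The 12 known ATF4 target synthetases had a median of 0.205 and 1 gene at the unadjusted threshold (YARS1), and the 7 other cytosolic genes tested had a median of 0.22 and 2 at that threshold, all 3 as higher, which 10.2% of all genes were. Without MET replicate 4 these medians were lower, at 0.027 inside and 0.13 outside the complex, and at 0.088 for the ATF4 targets and 0.13 for the other cytosolic genes.

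The 3 scaffolds of the complex are AIMP1, AIMP2 and EEF1E1, and none passed FDR ≤ 0.10. AIMP2 had 13.1, 17.8, 14.9, 16.4 and 18.7 CPM in CON and 17.9, 20.8, 24.1, 20.3 and 21.4 in MET. MET1+MET3 alone was below a CON sample, and the log2 fold change was 0.38 ± 0.117 (SE; edgeR adjusted p = 0.109 over the libraries and 0.21 over the samples). EEF1E1 had 9.86, 7.92, 13.2, 15.2 and 14.1 CPM in CON and 13.3, 16.5, 18.6, 15.4 and 16 in MET, with a log2 fold change of 0.41 ± 0.161 (SE; adjusted p = 0.18). AIMP1 overlapped fully, at 46.2 ± 8.3 CPM in CON and 45.1 ± 7.66 in MET.

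Charged tRNA is passed to the ribosome by elongation factors, and 2 of the 9 such genes tested passed FDR ≤ 0.10 over the 12 libraries, both as higher in MET, against 2.09% (higher) and 2.32% (lower) of all genes, and none over the 10 samples. EEF1D, the delta subunit of the exchange factor that recharges EEF1A with GTP, had 138, 138, 125, 120 and 153 CPM in CON and 162, 196, 159, 182 and 238 in MET. All MET samples were above all CON samples. EEF1D had a log2 fold change of 0.44 ± 0.117 (SE; edgeR adjusted p = 0.0801), and over the 10 samples it was 0.48 with an adjusted p of 0.178.

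TSFM, the exchange factor of the mitochondrial elongation factor TUFM, had 15.6, 16.1, 18.2, 21 and 17.8 CPM in CON and 21.4, 30.8, 24.2, 19.8 and 28.7 in MET. MET5 alone was below a CON sample. TSFM had a log2 fold change of 0.49 ± 0.128 (SE; edgeR adjusted p = 0.0781 over the libraries and 0.18 over the samples). TSFM is also in the shortest length group, with 1222 bases, and with the length trend removed it was at 0.38 (adjusted p = 0.141) over the libraries, while EEF1D was at 0.51 (adjusted p = 0.0891). TUFM itself was at 116 ± 10.9 CPM in CON and 145 ± 32.2 in MET, with a log2 fold change of 0.33 (adjusted p = 0.206). EEF1A1, which carries the charged tRNA in the cytosol, was at 1580 ± 173 and 1370 ± 125 CPM (log2 fold change -0.20; adjusted p = 0.352).

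Of the 11 genes taken as markers of amino acid stress through ATF4, 9 were tested and 1 passed FDR ≤ 0.10 over the 12 libraries, as higher, against 2.09% (higher) and 2.32% (lower) of all genes. DDIT3, the transcription factor CHOP, rose over the 12 libraries, with 20.3, 15.8, 16.8, 19.4 and 16.1 CPM in CON and 25.5, 30.4, 25.2, 26 and 23.1 in MET. The diets were fully separated. DDIT3 has short exons, 883 bases in all, and in the shortest of the 4 length groups 4.9% of genes passed as higher and 1.03% as lower. The log2 fold change was 0.52 ± 0.102 (SE; edgeR adjusted p = 0.0452), and 0.55 with an adjusted p of 0.156 over the 10 samples. With the length trend removed DDIT3 was at 0.37 (edgeR adjusted p = 0.139) over the libraries and no longer passed. DDIT3 lies across from MARS1 as given above, and MARS1 did not pass.

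ASNS, asparagine synthetase, had 9.42, 8.8, 10.9, 10.6 and 8.92 CPM in CON and 9.49, 10.3, 21.4, 14.9 and 13.3 in MET. MET4 was the highest sample of ASNS, as it was for most cytosolic synthetases, and the log2 fold change was 0.44 ± 0.198 (SE; edgeR adjusted p = 0.23). DDIT4, an inhibitor of mTORC1, had a log2 fold change of -0.58 ± 0.212 (SE; adjusted p = 0.148), and SLC3A2, the heavy chain of several amino acid transporters, one of 0.35 ± 0.113 (SE; adjusted p = 0.113). The other 5 genes tested lay between 0.003 (TRIB3) and 0.27 (VLDLR), with ATF4 itself at 0.23 (adjusted p = 0.385). Over the list, 8 of 9 genes were above 0, with a median of 0.23, or 0.10 over the 10 samples. CHAC1 and SLC7A11 were below the filter.

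**Figure D5:**
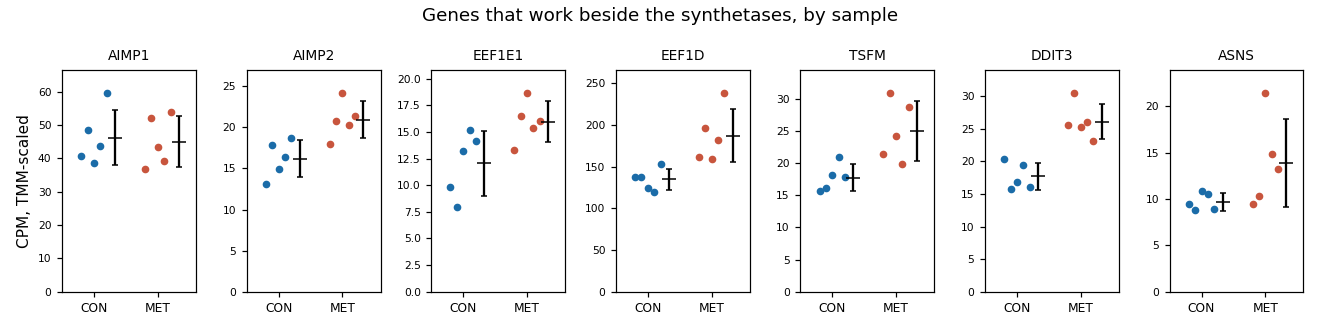
Level in CPM in each sample for the 3 scaffolds of the multi-synthetase complex (AIMP1, AIMP2, EEF1E1), 2 elongation factor genes (EEF1D, TSFM) and 2 genes of the ATF4 response (DDIT3, ASNS), CON in blue and MET in red, with the mean and SD over 5 samples. EEF1D and DDIT3 have all MET samples above all CON samples, and AIMP1 overlaps fully at means of 46.2 and 45.1 CPM.

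Genes that edit, mature or move tRNA had no member past FDR ≤ 0.10 among the 5 tested, with 4 above 0 and 1 below. The largest values were those of DTD2, which removes wrongly attached amino acids from tRNA (log2 fold change 0.75 ± 0.272, SE, at 1.48 ± 0.611 CPM in CON and 2.48 ± 0.422 in MET; edgeR adjusted p = 0.148), and TRNT1, which adds the CCA end that synthetases charge (0.28 ± 0.119; adjusted p = 0.211). The enzyme that turns glutamyl-tRNA into glutaminyl-tRNA in mitochondria, where no separate glutaminyl synthetase works, is built of QRSL1, GATB and GATC. Their log2 fold changes were 0.14, 0.165 and -0.051, none past the threshold. For selenocysteine, which is made on its tRNA, SEPSECS had 10.7 ± 2.47 CPM in CON and 8.06 ± 1.22 in MET (log2 fold change -0.46 ± 0.165, SE; adjusted p = 0.147) and PSTK a log2 fold change of 0.38 with an interval from -0.30 to 1.07.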

How the data were processed

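RNA from liver of 12 calves was sequenced from one end of the fragments on 1 lane. The authors aligned the reads to UMD 3.1.1 with STAR 2.5.3a and deposited raw counts of reads per gene from featureCounts 1.5.2, stranded, by Entrez ID and without multi-mapping reads or normalization (tools per the submitters' processing notes and the file headers). Symbols came from a RefSeq table, which matched all 36 synthetases. Positions and lengths are those of the count tables. Samples were grouped by their labels. Genes were kept by the default filter of edgeR 4.0.16 (R 4.3.3; minimum count 10, minimum total 15), scaled by TMM and tested by the quasi-likelihood test on diet alone, with Benjamini-Hochberg adjustment over all genes tested and a threshold of 0.10. Over the 10 samples the reads of a close pair were summed. CPM are TMM-scaled, TPM use exonic length and all counted reads, and log2 CPM a prior count of 2. The floor of 3 reads covers counting error only. The series describes 6 calves per diet, but 2 pairs of libraries were nearly alike. Over the 10 samples, p measures only the spread between these samples. Over the 12 libraries the close pairs counted as separate calves, so that SE, intervals and p from that fit can be too small. Values in every sample are given for both methionyl enzymes, for any synthetase past the threshold and for the 3 highest and 3 lowest log2 fold changes per compartment. Partner genes are given where past the threshold, and otherwise up to 3 per list by the size of the change, with GATC, ATF4, TRIB3 and VLDLR named beyond this rule after their values were seen. The genes, lists and rules were chosen with earlier results of these data known. Alternatives were other scalings (RLE, upper quartile, library size), filters and tests (DESeq2 1.42.0, limma 3.58.1 voom, robust and likelihood-ratio fits), a replicate block, removal of the length trend (loess, span 0.5) and each library left out. The fits were tested on simulated data with known changes. The simulated libraries were independent, without close pairs, so that this does not test the 12-library fit for such pairs. Replicate numbers did not pair the samples. No sequence of the genes or proteins was used here.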

Additional observations from a re-analysis of the deposited data

Results flagged for a closer look

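In 6 of 72 groups, each of 5 samples of 1 diet for 1 synthetase, a sample stood far from the others by Dixon's test at the 95% level. Chance alone gives such a value in about 1 in 20 groups. MET4 was the far sample in 4 of them. It had 116 CPM of YARS1 against 72.8 to 83.6 in the other MET samples, 53.9 CPM of HARS1 against 36.2 to 39.6, 47.8 CPM of IARS1 against 30.2 to 34.6, and 17.8 CPM of NARS2 against 15.2 to 15.7. MET6 had 65.7 CPM of CARS2 against 35.6 to 36.5. CON3 had 8.01 CPM of EARS2 against 2.71 to 3.74 in the other CON samples. No cause was tested.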

How the results depend on the processing

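Over 27 alternatives, 25 of the 35 synthetases tested kept the direction of their log2 fold change and 10 did not, all of them with main values of at most 0.094 in size. The number past FDR 0.10 was 0 and became 1 (YARS1) with DESeq2 and with the likelihood-ratio test, and it was between 0 and 1 when a library was left out (1 without CON replicate 6). The medians moved by less than the spread between samples, from 0.13 to 0.26 (cytosolic) and 0.082 to 0.17 (mitochondrial) with a library left out. With a replicate block the number stayed 0, the medians were 0.21 and 0.11, and LARS1 (0.015) and EARS2 (0.011) turned positive. Same-numbered samples correlated between -0.19 and 0.15, so the numbers were not taken as pairs. Upper quartile factors gave MARS2 -0.003. Library size alone gave LARS1 0.018, NARS2 0.025 and HARS2 0.03. No filter, and the CPM filter, each gave 0.006 for LARS1 and NARS2, and voom gave LARS1 0.017. Without the length trend LARS1 was 0.06, IARS1 0.042, HARS2 0.003 and EARS2 0.067. Over the 10 samples MARS2 was -0.032 and NARS2 0.001. Of the alternatives added after seeing the data, the 10 samples without MET replicate 4 gave YARS2 -0.029 and MARS2 -0.077, DESeq2 on the 10 samples gave MARS2 -0.03, and the 10 samples without the length trend gave LARS1 0.039, IARS1 0.048, MARS2 -0.022, NARS2 0.003 and EARS2 0.073. With a library left out the values ran from -0.013 to 0.22 (WARS1), -0.026 to 0.097 (QARS1), -0.10 to 0.099 (LARS1), -0.15 to 0.01 (IARS1), -0.012 to 0.20 (PARS2), -0.055 to 0.18 (MARS2), -0.04 to 0.028 (NARS2), -0.051 to 0.036 (HARS2) and -0.18 to 0.29 (EARS2). The causes were not tested. Depth limits TARS3 (1 to 10 reads), WARS2 (18 to 35), EARS2 (24 to 70) and MARS2 (37 to 92).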
